A study of Mus musculus with 3 samples.

Results

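The serotonin receptor genes studied were 10 genes picked by their symbols, Htr1a, Htr1b, Htr1d, Htr1f, Htr2a, Htr2c, Htr3a, Htr4, Htr6 and Htr7, among the 54532 genes of the table. RNA of prelimbic cortex (PrL) tissue was sequenced from male C57BL/6J mice that were 6 to 8 weeks old at assignment, in 3 libraries with 1 library per group. The CUMS vehicle group received the control virus rAAV-hSyn-bGH-polyA-CMV-EGFP, the CUMS oe-circ group a virus that adds circFKBP8(5S,6), a circular RNA, to the elements of the control, and the CUMS oe-pep group a virus for its protein cFKBP8 with a Flag tag, joined through P2A to EGFP. The oe-pep vector ends in another polyA signal than the control and has no CMV promoter. All 3 viruses were AAV/9 with the hSyn promoter, which drives expression in neurons, injected on both sides of the PrL. All 3 groups then went through chronic unpredictable mild stress (CUMS), a changing series of mild stressors, for 5 weeks. Every comparison was thus made within stressed mice. The tissue was taken whole, with no sorting of infected cells, and the number of mice behind a library is not given in the sources used here.

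Serotonin reaches the prefrontal cortex through axons of the raphe nuclei in the brainstem, and the cells of the cortex read it through a family of receptors. Receptors of the Htr1 group couple to Gi/o proteins, lower cAMP and open potassium channels, those of the Htr2 group couple to Gq and release calcium from stores, and Htr4, Htr6 and Htr7 couple to Gs and raise cAMP. Htr3a encodes the core subunit of a cation channel that serotonin opens. In the cortex Htr2a and Htr1a are known from pyramidal neurons and Htr3a from a class of GABA interneurons, while Htr1b, Htr4 and Htr6 are also well known from the striatum and Htr2c from the choroid plexus.

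The authors' values were FPKM, fragments scaled by gene length and by the depth of the library, so that levels can be set side by side between genes of different length. Whole reads could be recovered from them. Reads in genes numbered from 14413544 to 18084058 per library, so that a single read per kilobase added 0.0540 to 0.0687 to an FPKM. Unless stated otherwise, 3 values in a row belong to vehicle, oe-circ and oe-pep. All intervals below are exact 95% intervals from the reads, except those of summed FPKM, which are approximate. They cover counting error only and compare libraries, since 1 library per group leaves no replicate check and allows no test of the groups. In bulk tissue, fewer cells of a type and less RNA per cell cannot be told apart. All 10 genes had a mean FPKM of at least 0.1, the limit used, and a mean of 35.3 to 622 reads.

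The receptors are separate genes whose reads can be told apart, and short coding sequences of the closest pairs are shown for that reason. The stretches below hold the codons of the conserved aspartate, arginine and tyrosine at the inner end of the third membrane helix, in capitals, in the sense of the mRNA from 5′ to 3′. In Htr2c the bases just after these codons are known as the site where adenosines of the RNA are edited. They lie in coding exons at chr14:74645074-74645121 for Htr2a, chrX:147169656-147169703 for Htr2c, chr9:81632097-81632144 on the minus strand for Htr1b and chr4:136442840-136442887 for Htr1d, in the mm10 genome and the GENCODE vM21 transcripts.
Htr2a: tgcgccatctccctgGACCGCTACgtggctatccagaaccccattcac
Htr2c: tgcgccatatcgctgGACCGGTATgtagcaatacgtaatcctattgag
Htr1b: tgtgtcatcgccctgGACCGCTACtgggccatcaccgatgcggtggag
Htr1d: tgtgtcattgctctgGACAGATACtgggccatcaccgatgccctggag
Over these 48 bases Htr2a and Htr2c differed at 13 and Htr1b and Htr1d at 6. For 0 of the 10 members did a near-identical transcript of another gene turn up (95% identity or more across 50% of the length or more). The coding sequence lay in 1 exon in 4 members, Htr1a, Htr1b, Htr1d and Htr1f, and in 3 to 9 exons in the others. The antisense gene D430036J16Rik overlaps Htr1b and had 65, 21 and 60 reads. The library kit keeps strand, but the strand setting of the counting is not given in the sources used here, so the reads of these overlapping genes may not be fully separated.

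Promoters are shown for Htr2c, the member with the most reads, and Htr1d, the member with the largest fold in oe-circ. The 250 bases before their gene starts, from RefSeq on GRCm38.p6, are shown with the CCAAT box, read on either strand, in capitals. They lie at chrX:146962263-146962512 for Htr2c and chr4:136423274-136423523 for Htr1d, both on the plus strand.
Htr2c: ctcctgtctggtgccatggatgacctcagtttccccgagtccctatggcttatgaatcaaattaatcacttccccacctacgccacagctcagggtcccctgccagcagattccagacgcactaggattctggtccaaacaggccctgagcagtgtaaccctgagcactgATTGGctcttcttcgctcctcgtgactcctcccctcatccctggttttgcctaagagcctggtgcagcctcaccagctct
Htr1d: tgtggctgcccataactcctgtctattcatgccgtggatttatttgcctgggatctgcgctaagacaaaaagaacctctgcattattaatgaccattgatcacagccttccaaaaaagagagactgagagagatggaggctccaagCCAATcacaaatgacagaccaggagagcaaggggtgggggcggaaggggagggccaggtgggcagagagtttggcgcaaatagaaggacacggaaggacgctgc
The box began 80 bases before the start of Htr2c and 104 bases before that of Htr1d. The letters CCAAT were found before 3 of the 8 members that the table holds (Htr1b, Htr1d and Htr2c), and before 33.8% of all 32851 promoters. The cAMP response element TGACGTCA was found in 0 of the 8 and in 1.55% of all promoters. The half-site AGAACA of steroid receptors was found in 1 of the 8 (Htr2a) and in 16.1% of all. Both strands were searched, and a match of letters is a description only.

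Of the 10 receptor genes chosen, 3 were more than 2-fold lower in oe-circ than in vehicle (Htr2c, Htr1d and Htr4) and 0 were higher, by differences of log2(FPKM + 0.1), a scale that shrinks those of weakly expressed genes. Over all 20203 genes tested, 6.42% were more than 2-fold lower and 3.50% higher, and among the 14551 of them with a mean of at least 20 reads, as all members had, 1.04% were lower and 0.330% higher. In oe-pep, 0 of 10 were more than 2-fold lower or higher, where 4.93% of all genes were lower and 4.54% higher, and 0.385% and 0.364% of those with at least 20 reads. The members were chosen with earlier results of these data known, so their counts beside these shares are a description and no test. The median log2 difference of the members was −0.52 in oe-circ and −0.25 in oe-pep, and that of all genes tested was 0.00 in each. With Htr5a and Htr5b, receptor genes outside the choice that were both above vehicle in oe-circ, the median over 12 genes was −0.23 in oe-circ and −0.19 in oe-pep, an alternative added after the values had been seen. The counting interval of the ratio lay below 1 for 6 members and above 1 for 2 in oe-circ, where it did so for 12.3% and 12.8% of all genes. In oe-pep it lay below 1 for 3 members and above 1 for 0, where it did so for 11.7% of all genes in each direction. The vehicle library serves both comparisons, so their directions are not independent.

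**Figure D1:**
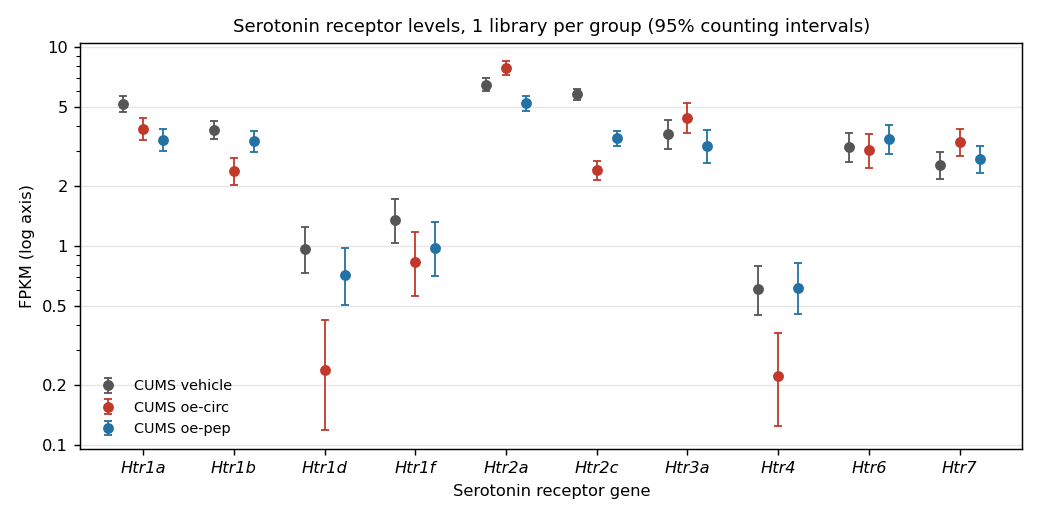
FPKM of the 10 serotonin receptor genes (log axis) by library, 1 point per library with its exact 95% Poisson interval. Htr2c, Htr1d and Htr4 stand lowest in oe-circ, as do Htr1b, Htr1f and Htr6. Htr2a stands highest there at 7.86, as do Htr3a and Htr7 at their own levels. The intervals of Htr1f, Htr6, Htr3a and Htr7 overlap between the libraries.

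The Gq-coupled pair moved apart in the oe-circ library. Htr2c (ENSMUSG00000041380, chromosome X, 146962513 to 147197277, plus strand, mm10), the receptor that dampens dopamine release and feeding, had an FPKM of 5.78 in vehicle, 2.40 in oe-circ and 3.48 in oe-pep, from 997, 326 and 543 reads. The 3 intervals did not overlap (5.42 to 6.15, 2.15 to 2.68 and 3.19 to 3.78), and the vehicle library was the highest. Htr2c was 2.40-fold lower in oe-circ (interval 2.12 to 2.73, log2 difference −1.23) and 1.66-fold lower in oe-pep (1.50 to 1.85, −0.72) than in vehicle. It had the most reads of the members in vehicle and oe-pep. Its gene holds several small RNA genes in its introns, of which Gm24627 had 1 read in vehicle and the others had 0 in all libraries.
Htr2a (ENSMUSG00000034997, chromosome 14, 74640840 to 74709494, plus strand), the main excitatory serotonin receptor of pyramidal neurons and the target of classical psychedelics, had an FPKM of 6.46, 7.86 and 5.21, from 670, 641 and 489 reads. Oe-circ was the highest and oe-pep the lowest. Against vehicle it was 1.22-fold higher in oe-circ (1.09 to 1.36) and 1.24-fold lower in oe-pep (1.10 to 1.40).
The ratio of Htr2a to Htr2c within a library does not depend on how libraries are scaled. Chosen after the values had been seen, this FPKM ratio was 1.12 in vehicle (1.01 to 1.23), 3.27 in oe-circ (2.86 to 3.75) and 1.50 in oe-pep (1.32 to 1.70).

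The 4 Gi/o-coupled members were below vehicle in both overexpression libraries, by differing amounts, whereas Htr5a, a Gi/o-coupled receptor gene outside the choice, was above it in both. Htr1a (ENSMUSG00000021721, chromosome 13, 105443639 to 105448122, plus strand), the autoreceptor of raphe neurons and an inhibitory receptor of cortical pyramidal cells, had an FPKM of 5.18, 3.88 and 3.41. These values came from 430, 253 and 256 reads. Against vehicle it was 1.34-fold lower in oe-circ (1.14 to 1.57) and 1.52-fold lower in oe-pep (1.30 to 1.78), and the intervals of the levels in oe-circ and oe-pep overlapped.
Htr1b (ENSMUSG00000049511, chromosome 9, 81628291 to 81633828, minus strand), which sits on axon terminals and limits transmitter release, had an FPKM of 3.83, 2.37 and 3.35 from 335, 163 and 265 reads. It was 1.62-fold lower in oe-circ (1.34 to 1.96). In oe-pep the ratio to vehicle was 0.874 with an interval that holds 1 (0.741 to 1.03). The oe-circ library stood apart from the other two.
Htr1d (ENSMUSG00000070687, chromosome 4, 136423524 to 136444398, plus strand), a terminal receptor close to Htr1b and a target of the triptans, had an FPKM of 0.962, 0.236 and 0.709 from 57, 11 and 38 reads. It was 4.07-fold lower in oe-circ than in vehicle (2.11 to 8.62), the largest fold among the members, although 11 reads make it imprecise. On the scale with the pseudocount its log2 difference was −1.66. In oe-pep the ratio was 0.737 (0.475 to 1.13).
Htr1f (ENSMUSG00000050783, chromosome 16, 64924729 to 65105854, minus strand), another triptan-sensitive receptor, had an FPKM of 1.34, 0.826 and 0.972 from 64, 31 and 42 reads. It was 1.62-fold lower in oe-circ (1.04 to 2.58), and in oe-pep the ratio was 0.725 (0.479 to 1.09). Levels of the 3 libraries overlapped in their intervals.

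**Figure D2:**
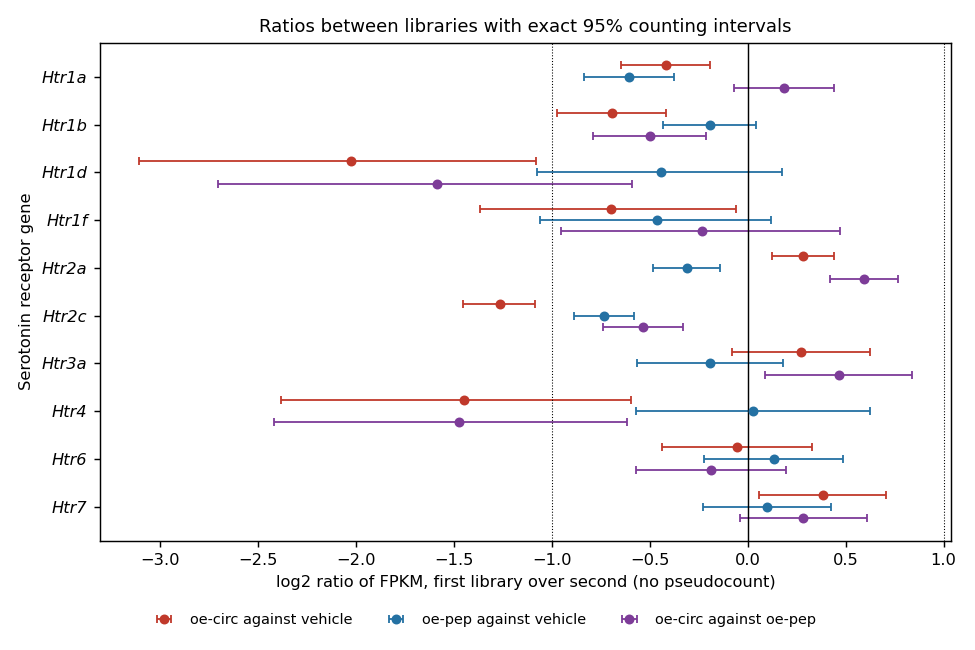
Log2 ratio of FPKM for each serotonin receptor gene in the 3 comparisons, without a pseudocount, with exact 95% counting intervals. Dotted lines mark 2-fold. The intervals of Htr2c and Htr1d against vehicle lie wholly beyond 2-fold lower in oe-circ, and that of Htr4 crosses the line.

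The Gs-coupled receptors did not move together. Htr4 (ENSMUSG00000026322, chromosome 18, 62324204 to 62467802, plus strand), a receptor known for promoting learning and fast antidepressant-like effects in rodents, had an FPKM of 0.603, 0.221 and 0.615, from 52, 15 and 48 reads. Vehicle and oe-pep were nearly equal and oe-circ was lower. It was 2.73-fold lower in oe-circ (1.51 to 5.21), and in oe-pep the ratio to vehicle was 1.02 (0.674 to 1.54).
Htr6 (ENSMUSG00000028747, chromosome 4, 139061108 to 139075570, minus strand), a receptor nearly confined to the brain, had an FPKM of 3.14, 3.02 and 3.44 from 136, 103 and 135 reads. Its ratio to vehicle was 0.963 in oe-circ (0.738 to 1.25) and 1.10 in oe-pep (0.858 to 1.40).
Htr7 (ENSMUSG00000024798, chromosome 19, 35958734 to 36057507, minus strand), known for its part in circadian timing, had an FPKM of 2.54, 3.32 and 2.72 from 160, 164 and 155 reads. It was 1.30-fold higher in oe-circ (1.04 to 1.63), with a ratio of 1.07 in oe-pep (0.853 to 1.34).
The channel subunit Htr3a (ENSMUSG00000032269, chromosome 9, 48899213 to 48911099, minus strand) had an FPKM of 3.63, 4.39 and 3.18 from 140, 133 and 111 reads. Both ratios to vehicle had intervals that hold 1, 1.21 in oe-circ (0.946 to 1.54) and 0.876 in oe-pep (0.677 to 1.13).

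Summed over the members, receptor RNA was 33.5 FPKM in vehicle, 28.5 in oe-circ and 27.1 in oe-pep. The 4 Gi/o-coupled genes summed to 11.3, 7.31 and 8.44, which was 33.8%, 25.6% and 31.2% of the members' total. The Gq-coupled pair summed to 12.2, 10.3 and 8.68, with Htr2a making up most of it in oe-circ. The Gs-coupled genes summed to 6.29, 6.56 and 6.78, so that their share was 18.8%, 23.0% and 25.0%. Htr3a held 10.9%, 15.4% and 11.7%. The Gi/o and Gq sums, which leave out Htr5a, were thus below vehicle in both overexpression libraries, with approximate counting intervals that did not overlap that of vehicle. The Gs sum was slightly above vehicle, but its intervals overlapped (5.64 to 6.98, 5.82 to 7.37 and 6.08 to 7.54), so it did not differ beyond counting error.

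**Figure D3:**
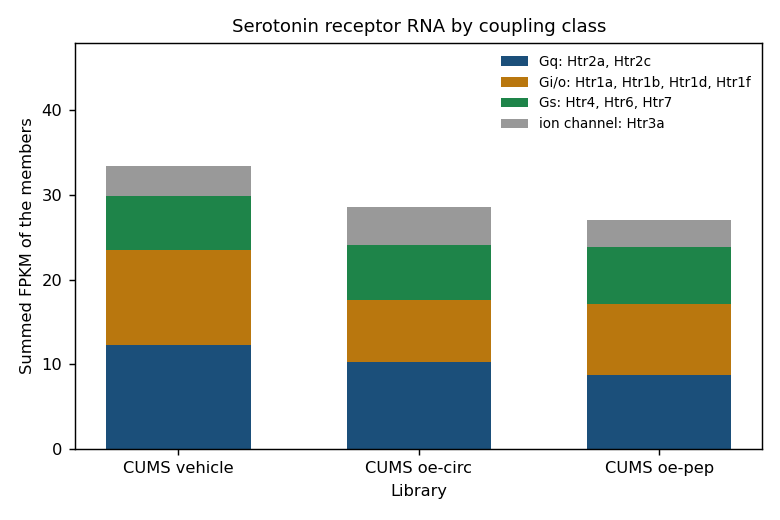
Summed FPKM of the serotonin receptor genes in each library, stacked by the G protein their products couple to, with the ion channel subunit Htr3a on top. The Gi/o segment is 11.3 in vehicle, 7.31 in oe-circ and 8.44 in oe-pep.

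The order of the levels differed between the libraries. Htr2a was the highest in all 3 and Htr4 the lowest, although Htr4 and Htr1d did not differ beyond counting error in oe-circ and oe-pep. In vehicle Htr2a was followed by Htr2c, Htr1a, Htr1b, Htr3a, Htr6, Htr7, Htr1f, Htr1d and Htr4. The neighbours Htr2c and Htr1a, Htr1b and Htr3a, Htr3a and Htr6, Htr6 and Htr7, and Htr1f and Htr1d did not differ beyond counting error there. In oe-circ, Htr2c stood at rank 6, behind Htr3a, Htr1a, Htr7 and Htr6, and it did not differ beyond counting error from its neighbours Htr6 and Htr1b. Htr2a was 1.79 times the level of the next gene there, Htr3a (1.48 to 2.18). In oe-pep, Htr2c, Htr6, Htr1a, Htr1b, Htr3a and Htr7 followed Htr2a, and no neighbours among these 6 differed beyond counting error. Htr2a lay above 68.1%, 72.0% and 63.7% of all genes tested in vehicle, oe-circ and oe-pep, and Htr4 above 27.7%, 14.9% and 28.0%.

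Set directly against each other, the 2 overexpression libraries differed in several receptors. Htr1d and Htr4 were more than 2-fold lower in oe-circ than in oe-pep and 0 members were higher, where 6.26% of all genes tested were lower and 4.31% higher, and 0.921% and 0.330% of those with at least 20 reads. The ratio of oe-circ to oe-pep was 0.333 for Htr1d (0.154 to 0.665), and Htr4 was 2.78-fold lower (1.53 to 5.35). Htr2c was 1.45-fold lower (1.26 to 1.67) and Htr1b 1.41-fold lower (1.16 to 1.73). Htr2a was 1.51-fold higher in oe-circ (1.34 to 1.70) and Htr3a 1.38-fold higher (1.06 to 1.79). For Htr1a the ratio was 1.14 (0.952 to 1.36), for Htr7 1.22 (0.972 to 1.53), for Htr6 0.878 (0.673 to 1.14) and for Htr1f 0.850 (0.516 to 1.38), all with intervals that hold 1. This comparison does not use the vehicle library.

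**Figure D4:**
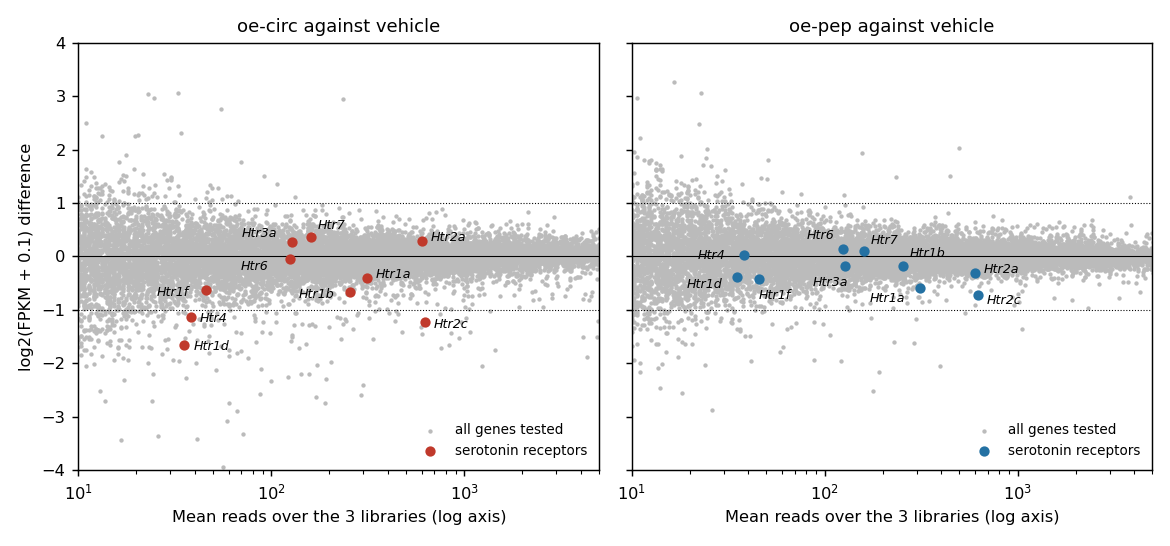
Log2(FPKM + 0.1) difference against the mean reads over the 3 libraries (log axis) for all genes tested (grey) and the serotonin receptors (coloured), in oe-circ and in oe-pep against vehicle. Genes outside the axes are not drawn, and dotted lines mark 2-fold. At 622 mean reads Htr2c lies at −1.23 in oe-circ and at −0.72 in oe-pep.

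The other serotonin receptor genes in the table were Htr5a, Htr5b, Htr2b and Htr3b. Htr5a, an inhibitory receptor of neurons, had an FPKM of 3.36, 5.05 and 4.21, with 334, 395 and 379 reads. It was 1.50-fold higher in oe-circ (1.30 to 1.75) and 1.25-fold higher in oe-pep (1.08 to 1.46). Htr5b had 13, 15 and 12 reads, Htr2b 1, 3 and 1, and Htr3b 1, 0 and 0.

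Genes that make, move and break down serotonin stayed within 2-fold. Of 14 listed, 11 were tested and 0 were more than 2-fold lower or higher in either overexpression library. In oe-circ all 11 tested were below vehicle (median −0.35), with intervals below 1 for 4 of them. The median in oe-pep was −0.02. Ddc, the last enzyme of serotonin and dopamine synthesis, was named after its value had been seen, with an FPKM of 2.07, 1.22 and 2.05, 1.70-fold lower in oe-circ than in vehicle (1.30 to 2.25). The 3 most abundant were Qdpr, which recycles the cofactor of the hydroxylases (76.0, 62.8 and 94.5), Maob, which breaks down amines (9.53, 9.27 and 9.08), and Spr, which makes the cofactor (9.02, 8.53 and 9.92). The serotonin transporter gene Slc6a4 had 0 reads in all 3 libraries. A fixed floor of 3 reads was taken for such a count of 0, which is not the end of an exact interval. Tph2, the neuronal enzyme that starts serotonin synthesis, had 16, 8 and 14 reads.

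Downstream of the receptors, 1 gene passed 2-fold on the scale with the pseudocount. Of 9 Gi/o effector genes, 10 Gq effector genes (9 tested) and 10 Gs effector genes, only Adcy5 was more than 2-fold lower in oe-circ, and 0 were higher. Over all genes tested, 6.42% were lower and 3.50% higher in oe-circ, so these counts are near the shares of all genes. The Gi/o effector gene Kcnj5, with 21, 5 and 6 reads, fell just short on that scale (−0.98 in oe-circ and −0.96 in oe-pep). Without the pseudocount its ratios to vehicle were beyond 2-fold lower, 0.303 in oe-circ and 0.316 in oe-pep. Kcnj5 passed the filter only through vehicle (0.242, against 0.0734 in oe-circ and 0.0765 in oe-pep). The medians of the Gi/o, Gq and Gs lists were 0.10, −0.03 and 0.02 for oe-circ against 0.05, 0.02 and 0.02 for oe-pep. Adcy5, the main adenylyl cyclase of the striatum and also one of the striatal markers below, had an FPKM of 79.5, 39.1 and 72.2, and Gnal, the striatal G protein subunit that activates it, 57.3, 34.4 and 48.2. Adcy1, a cyclase abundant in the cortex, had 76.0, 94.5 and 103. The most abundant of the Gi/o list were Gnai1, Gnao1 and Gnai2, and of the Gq list Itpr1, Gna11 and Gnaq. The inhibitory subunit gene Gnao1 had 67.1, 65.3 and 66.9, and Gnaq, the subunit behind Htr2 signals, 33.2, 36.3 and 34.9. Of 12 genes of receptor partners, trafficking and RNA editing, 0 passed 2-fold in either library (medians 0.01 and 0.00), again near the shares of all genes. Dlg4, a scaffold that binds Htr2a and Htr2c, had 63.5, 63.1 and 62.2. Adarb1 and Adar, which edit the RNA of Htr2c, were named for the editing site shown above, after their values had been seen. Adarb1 had 4173, 3391 and 3731 reads, and Adar 2702, 2259 and 2534.

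Most tested markers of striatal, basal forebrain cholinergic, septal and hypothalamic cells were lower in oe-circ than in vehicle. For these and the marker lists below, the shares of all genes tested beyond 2-fold were 6.42% lower and 3.50% higher in oe-circ. In oe-pep they were 4.93% and 4.54%. Of 15 genes of striatal projection neurons, 13 were more than 2-fold lower in oe-circ and 0 higher (median −1.51), against 0 in oe-pep (−0.14). Their summed FPKM was 819.9 in vehicle, 299.3 in oe-circ and 686.2 in oe-pep, and none was at 0. Among the genes lower were Drd1, Drd2, Adora2a, Ppp1r1b, Penk and Adcy5, of which Drd2, the dopamine receptor of indirect pathway neurons, had an FPKM of 22.5, 6.83 and 22.6. Of 10 basal forebrain cholinergic genes, 9 were lower in oe-circ (among them Chat, Slc5a7, Slc18a3 and Slc10a4) and 4 in oe-pep (Slc10a4, Ngfr, Lhx8 and Gbx1), with summed FPKM of 21.8, 2.75 and 9.51. Gbx1 passed the filter only through vehicle (1.14, 0.0198 and 0.0687). Isl1 is in the striatal and the cholinergic list and was counted as lower in oe-circ in each. Of 15 septal and hypothalamic genes, 11 were tested, with 9 lower in oe-circ (Nkx2-1, Lhx5, Six3, Pmch, Trh, Gal, Nts, Dlk1 and Baiap3) and 7 in oe-pep (all of these but Six3 and Trh), and a summed FPKM of 25.6, 4.10 and 10.4. Sim1 was at 0 in all 3 libraries, Oxt at 0 in vehicle and oe-circ, Hcrt at 0 in oe-pep, and Lhx5 and Gal at 0 in both overexpression libraries. Lhx5 and Gal thus passed the filter only through vehicle (0.301 and 0.835), so their calls of lower were fixed by it. The part of these cells in the receptor values was not tested.
Choroid plexus genes were read because Htr2c is abundant in that tissue. Their summed FPKM was 10.7 in vehicle, 10.3 in oe-circ and 22.3 in oe-pep, and Ttr, the thyroid hormone carrier that defines the tissue, had 6.87, 8.46 and 19.4. Of 12 listed, 7 were tested, with Clic6 more than 2-fold lower in both libraries, Folr1 higher in both and Ttr higher in oe-pep. Folr1 had only 1, 11 and 10 reads and passed the filter only through the overexpression libraries. Its ratio of oe-circ to vehicle has an interval of 2.03 to 602. Kcnj13 was at 0 in vehicle and Kcne2 at 0 in oe-circ.
Markers of excitatory cortical neurons, which define the labelled tissue, were present in all libraries. Their summed FPKM was 369.1 in vehicle, 429.2 in oe-circ and 398.0 in oe-pep, with 1 of 12 more than 2-fold lower in oe-circ (Foxp2) and a median of 0.24 in oe-circ and 0.12 in oe-pep. Slc17a7, the vesicular glutamate transporter of cortical neurons, had 235, 277 and 253. Of 12 markers of the interneuron class that carries Htr3a, 1 was more than 2-fold lower in oe-circ (Sncg) and 0 higher, with medians of −0.02 and −0.13. In oe-circ 8 of the 12 were below vehicle, while their summed FPKM was 116.5, 149.4 and 117.6. The most abundant were Lamp5 (48.7, 81.2 and 54.5), Cnr1 (27.3, 27.3 and 28.7) and Vip (9.24, 16.3 and 10.1). Of 7 thalamic markers, Tcf7l2 and Gbx2 were more than 2-fold lower in oe-circ and Gbx2 in oe-pep, and the summed FPKM was 24.0, 19.5 and 18.4. Calb2, which is also in the interneuron list, held 12.2, 8.36 and 6.61 of this sum. Gbx2 was at 0 in oe-circ and passed the filter only through vehicle (0.273, against 0.0823 in oe-pep).

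**Figure D5:**
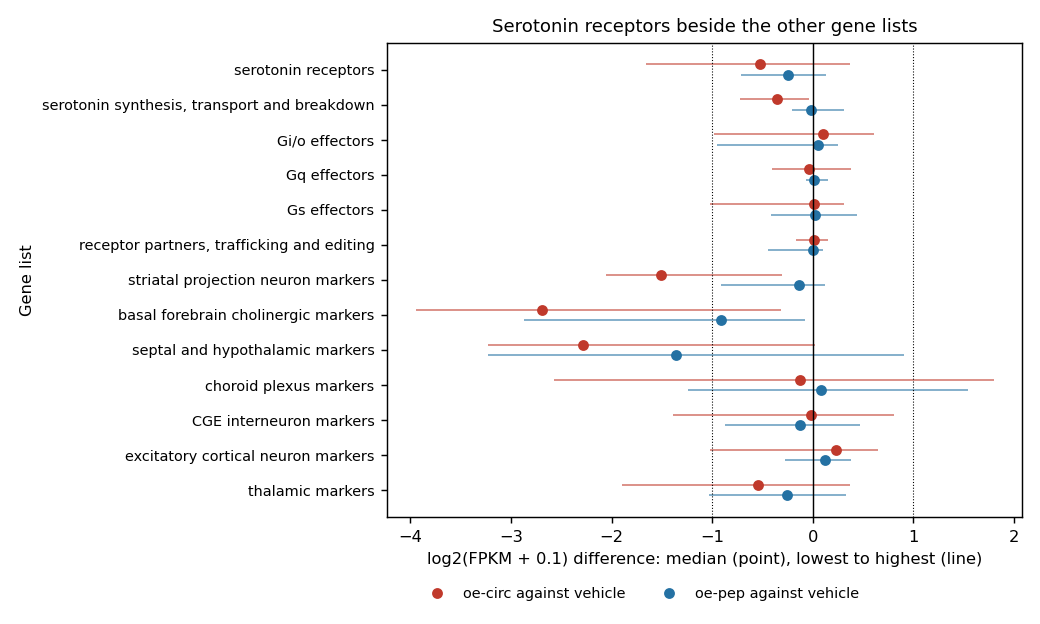
Median log2(FPKM + 0.1) difference (point) and the lowest to the highest member (line) of the serotonin receptors and of the other gene lists, in oe-circ and oe-pep against vehicle. Dotted lines mark 2-fold. The receptors have medians of −0.52 and −0.25, and the striatal markers −1.51 and −0.14. The other serotonin receptor genes are not drawn, with medians of 0.51 in oe-circ and 0.17 in oe-pep over the 2 tested.

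Htr2c has the most reads of the members beyond 2-fold. Its nearest genes in the pair of differences from vehicle (Euclidean distance, log2(FPKM + 0.1), 13033 genes whose mean FPKM reached 1) were Gm3219, Smpdl3b, Filip1, Gm4739 and Car12. The distance ran from 0.0327 to 0.142 over values of 3 libraries. Filip1 had 383, 126 and 220 reads and Car12, a carbonic anhydrase gene, had 431, 125 and 242. Gm3219 and Gm4739 had at most 24 reads in any library.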

How the data were processed

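The deposited table holds an FPKM per library and the length of each of 54532 genes, from stranded mRNA libraries. Named in the notes of the submitters are cutadapt 2.5, the aligner HISAT2 2.1.0, the counter featureCounts 1.6.3 and mm10. FPKM times length, divided by 1 constant per library (the FPKM of a single read per kilobase), came out as a whole number of reads (largest deviation 7.74e-09).

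Groups were taken from the treatment labels. Differences were computed on log2(FPKM + 0.1) where the mean FPKM reached 0.1, and called by size beyond 2-fold, with no p-value, since each group had 1 library. Intervals were Poisson for levels and Clopper-Pearson for ratios, at 95%. The steps were tested on simulated data. Coordinates of 9 of the 10 members equalled those in GENCODE vM21, and Htr4 differed. Near-identical transcripts were searched for with minimap2 2.31-r1302. Intervals came from scipy 1.17.1 under Python 3.11.15.

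The members and lists were chosen with earlier results of these data known. By the naming rule, every member was given with its values, and each other list by its counts, its members beyond 2-fold and its 3 most abundant genes, not all of which are printed. For Htr2c the 5 nearest genes were named. Other genes, such as Ddc, Tph2, Slc6a4, Adar, Adarb1 and the Kcnj genes, were chosen after their values were seen. Added after the values had been seen was the family with Htr5a and Htr5b. The other alternatives were pseudocounts of 0.01 and 1, no pseudocount, median-ratio scaling, no filter, a mean of 20 reads or more, and a higher FPKM minimum of 1.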

Additional observations from a re-analysis of the deposited data

How the results depend on the processing

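Each of the 204 member differences under the 7 alternatives kept its direction, but most could not have changed it. A filter leaves a member's difference as it is, and a change of pseudocount cannot reverse a direction. Only the 30 differences under median-ratio scaling were free to do so, and its factors ran only from 0.999 (oe-circ) to 1.002 (vehicle). The kept directions therefore say little about robustness. Of the 204 differences, 199 kept their side of 2-fold, which a filter cannot change either. The other 5 were those of a pseudocount of 1, which shrinks low values by construction: 0 members were then more than 2-fold lower in oe-circ against vehicle and 0 against oe-pep, with Htr2c at −0.99, Htr1d at −0.67 and Htr4 at −0.39 against vehicle, and Htr1d at −0.47 and Htr4 at −0.40 against oe-pep. With a mean FPKM of at least 1, Htr1d and Htr4 were not tested, which left 1 member lower against vehicle and 0 against oe-pep. Under median-ratio scaling every count stayed within 1.5 times its value. Sums by coupling class stayed within counting error under that scaling, the alternative run for them. The median of the members in oe-circ against vehicle was −0.23 with a mean FPKM of at least 1, and −0.23 with Htr5a and Htr5b added. Against oe-pep the median was −0.00037 under each of these and −0.13 with a pseudocount of 1.

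Background counts depended on low genes. With a pseudocount of 1 the genes more than 2-fold lower and higher were 153 and 70 in oe-circ against vehicle, 107 and 109 in oe-pep against vehicle, and 157 and 94 in oe-circ against oe-pep. With a mean FPKM of at least 1 they were 174 and 82, 90 and 90, and 148 and 84, in the same order. With a mean of at least 20 reads they were 151 and 48, 56 and 53, and 134 and 48. With no filter, 1923 were lower and 1090 higher in oe-circ against vehicle, and 1624 and 1444 in oe-pep against vehicle. In oe-circ against oe-pep, 1887 were then lower and 1318 higher.

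No paired analysis was possible because each group had 1 library, and no library could be left out for the same reason. Htr1d and Htr4, with 11 and 15 reads in oe-circ, are the members whose size of difference the depth limits most.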

Other observations

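Genes of the potassium channels that Gi/o-coupled receptors open were also read, chosen after their values had been seen. Kcnj3 had an FPKM of 16.0 in vehicle, 24.5 in oe-circ and 17.3 in oe-pep, and Kcnj6 1.78, 2.74 and 1.85. Kcnj9 had 29.5, 37.3 and 35.1. The ratio of oe-circ to vehicle was 1.53 for Kcnj3 (1.43 to 1.64), 1.53 for Kcnj6 (1.29 to 1.82) and 1.27 for Kcnj9 (1.20 to 1.34), none beyond 2-fold. Kcnj5 went the other way, with 21, 5 and 6 reads and a ratio to vehicle of 0.303 in oe-circ (0.0892 to 0.825) and 0.316 in oe-pep (0.104 to 0.809). It passed the filter only through vehicle, with an FPKM of 0.242, 0.0734 and 0.0765. Whether these values hold in other mice cannot be told from 1 library per group.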
